A study of Mus musculus with 9 samples.

Results

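Nucleotide synthesis in mouse embryonic stem (ES) cells was followed through 34 genes whose enzymes build purines and pyrimidines, salvage them, phosphorylate them or supply their one-carbon units. The genes were chosen by symbol for their place in the pathway, with earlier results of these data known. All 34 matched an Ensembl identifier among the 37310 gene rows of the count files. All 34 were also among the 16224 genes that passed the filter on low counts, and 33 had a mean of at least 10 CPM (library-size-scaled counts after TMM scaling). The exception was Hprt.

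RNA was sequenced in 9 libraries, 3 in each of 3 groups, all from ES cells of the parental line E14 collected after 72 h. In the group labelled Zbtb11 KO, cells homozygous for a loxP-flanked Zbtb11 allele (Zbtb11lox/lox), with ERt2-Cre at the Rosa26 locus, received 250 nM 4-hydroxytamoxifen (4OHT), the ligand of the Cre fusion protein. In the 4OHT control, cells with wild-type Zbtb11 and wild-type Rosa26 received the same dose, and in the ethanol control the Zbtb11lox/lox, Rosa26 ERt2-Cre cells received the carrier ethanol. The ethanol control thus shares its line with the labelled KO libraries and the 4OHT control shares the drug, while the controls differ from each other in line and drug. The labels name no separate cultures for the replicates, and p-values thus rest on differences between libraries of a group that may be technical.

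Purine synthesis builds the ring on phosphoribosyl pyrophosphate (PRPP) up to inosine monophosphate (IMP), which is then converted to AMP or GMP. Pyrimidine synthesis makes the ring first and joins it to PRPP afterwards to give UMP, from which CTP and the deoxypyrimidines derive. In between lies the dihydroorotate dehydrogenase step, whose enzyme sits in the inner mitochondrial membrane and hands its electrons to ubiquinone, so that its turnover depends on complex III of the respiratory chain. Dividing ES cells also recover bases and nucleosides through salvage enzymes.

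Gene counts summed to between 16909139 and 23544893 per library. Reads assigned to no annotated feature made up 32.7% to 33.8% in labelled KO libraries, 26.7% to 27.5% in 4OHT control libraries and 26.4% to 28.7% in ethanol control libraries, and their part in the results below was not tested. Zbtb11 itself had 369, 386 and 376 CPM in labelled KO libraries, 364, 378 and 361 CPM in 4OHT control libraries and 348, 359 and 360 CPM in ethanol control libraries. Its log2 fold change was 0.09 (SE 0.045, edgeR quasi-likelihood test, adjusted p = 0.17) against the ethanol control, so a count over the whole gene did not show the deletion, and these libraries are named by their label only. ES cell markers summed to 4289 to 4626 CPM in labelled KO libraries, 4584 to 5264 CPM in 4OHT control libraries and 4590 to 4871 CPM in ethanol control libraries, with all 10 genes detected. Of the 10, 2 fell against the ethanol control, Utf1 (-0.39, adjusted p = 0.0012) and Esrrb (-0.24, adjusted p = 0.031), or 1 without ethanol control replicate 1 or 3 or KO replicate 1. Against the 4OHT control 4 of the 10 fell (2 on library totals), with Esrrb at -0.26 (adjusted p = 0.012) and Utf1 not called (-0.10, adjusted p = 0.32). Primitive endoderm markers summed to 22.3 to 26.8 CPM, 12.7 to 15.0 CPM and 14.9 to 20.9 CPM in the same groups, with 8 genes of which Foxa2 stayed at 10 counts or fewer per library. Of 7 tested, Gata6 (1.20, adjusted p = 0.001), Sox17 (1.04, adjusted p = 0.031) and Gata4 (0.84, adjusted p = 0.029) rose against the ethanol control, or 1 without ethanol control replicate 2 or 3 or KO replicate 1 or 3, and 4 of the 7 rose against the 4OHT control. Fibroblast markers, which feeder cells would carry, summed to 25.4 to 26.4 CPM, 20.6 to 20.7 CPM and 21.1 to 25.3 CPM, with Col3a1 and Lum among 8 genes at 10 counts or fewer. Of 5 fibroblast markers tested, 0 rose and 0 fell against the ethanol control. Against the 4OHT control, Col1a2 (2.14, adjusted p = 6.2e-06) and Col1a1 (1.01, adjusted p = 8.3e-06) rose and Thy1 fell (-0.65, adjusted p = 0.00045). In the 4OHT control Col1a2 was lower than in the ethanol control (-2.05, adjusted p = 3.4e-05) and Thy1 higher (0.50, adjusted p = 0.0069). These genes were named after their values were seen. Mesoderm and ectoderm markers summed to 51.5 to 65.8 CPM, 62.7 to 77.7 CPM and 50.1 to 60.4 CPM. Over all tested genes, 14.2% fell and 13.0% rose against the ethanol control, and 19.8% fell and 19.1% rose against the 4OHT control. Among genes with a mean of at least 10 CPM the falls were 21.8% and 27.3%. The ES cell marker falls against the ethanol control lie near that share and are given for the single genes only. The part of these marker levels in the results was not tested.

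Against the ethanol control, 18 of the 34 genes fell in the labelled KO libraries, 1 rose and 15 were not called at an adjusted p under 0.05. Over all tested genes 27.2% were called, 14.2% as falls and 13.0% as rises, and among the 9122 genes with a mean of at least 10 CPM, a range that holds 33 of the members, 21.8% fell and 12.5% rose. The members' median log2 fold change was -0.21, beside 0.01 over all tested genes. Of the 18 falls, 9 reached 0.3 on the log2 scale and 9 were smaller. Against the 4OHT control, 12 fell, 2 rose and 20 were not called, where 38.9% of all tested genes were called, 19.8% as falls and 19.1% as rises (27.3% and 18.5% at 10 CPM or more), with a median of -0.16 beside 0.02 over all tested genes. All 12 also fell against the ethanol control: Dhodh, Umps, Uck2, Dctd, Dut, Tk1, Gart, Pfas, Gmps, Aprt, Nme1 and Shmt1. Falls against both controls made up 9.6% of all tested genes. That share was not computed for genes with a mean of at least 10 CPM, where falls were more frequent. The 2 comparisons share the labelled KO libraries. In bulk RNA, a lower level can come from less of the RNA in each cell or from fewer cells that carry it, and the counts cannot tell these apart.

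Without TMM scaling, on library totals alone, 13 members fell and 1 rose against the ethanol control, where 9.41% of all genes fell and 18.7% rose. On the same scale 12 fell and 8 rose against the 4OHT control, where 14.3% of all genes fell and 26.0% rose. With the replicate number as a block, 22 members fell and 1 rose against the ethanol control, where 22.3% of all genes fell and 20.4% rose. With the same block 19 members fell and 4 rose against the 4OHT control, where 25.9% of all genes fell and 25.5% rose.

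**Figure D1:**
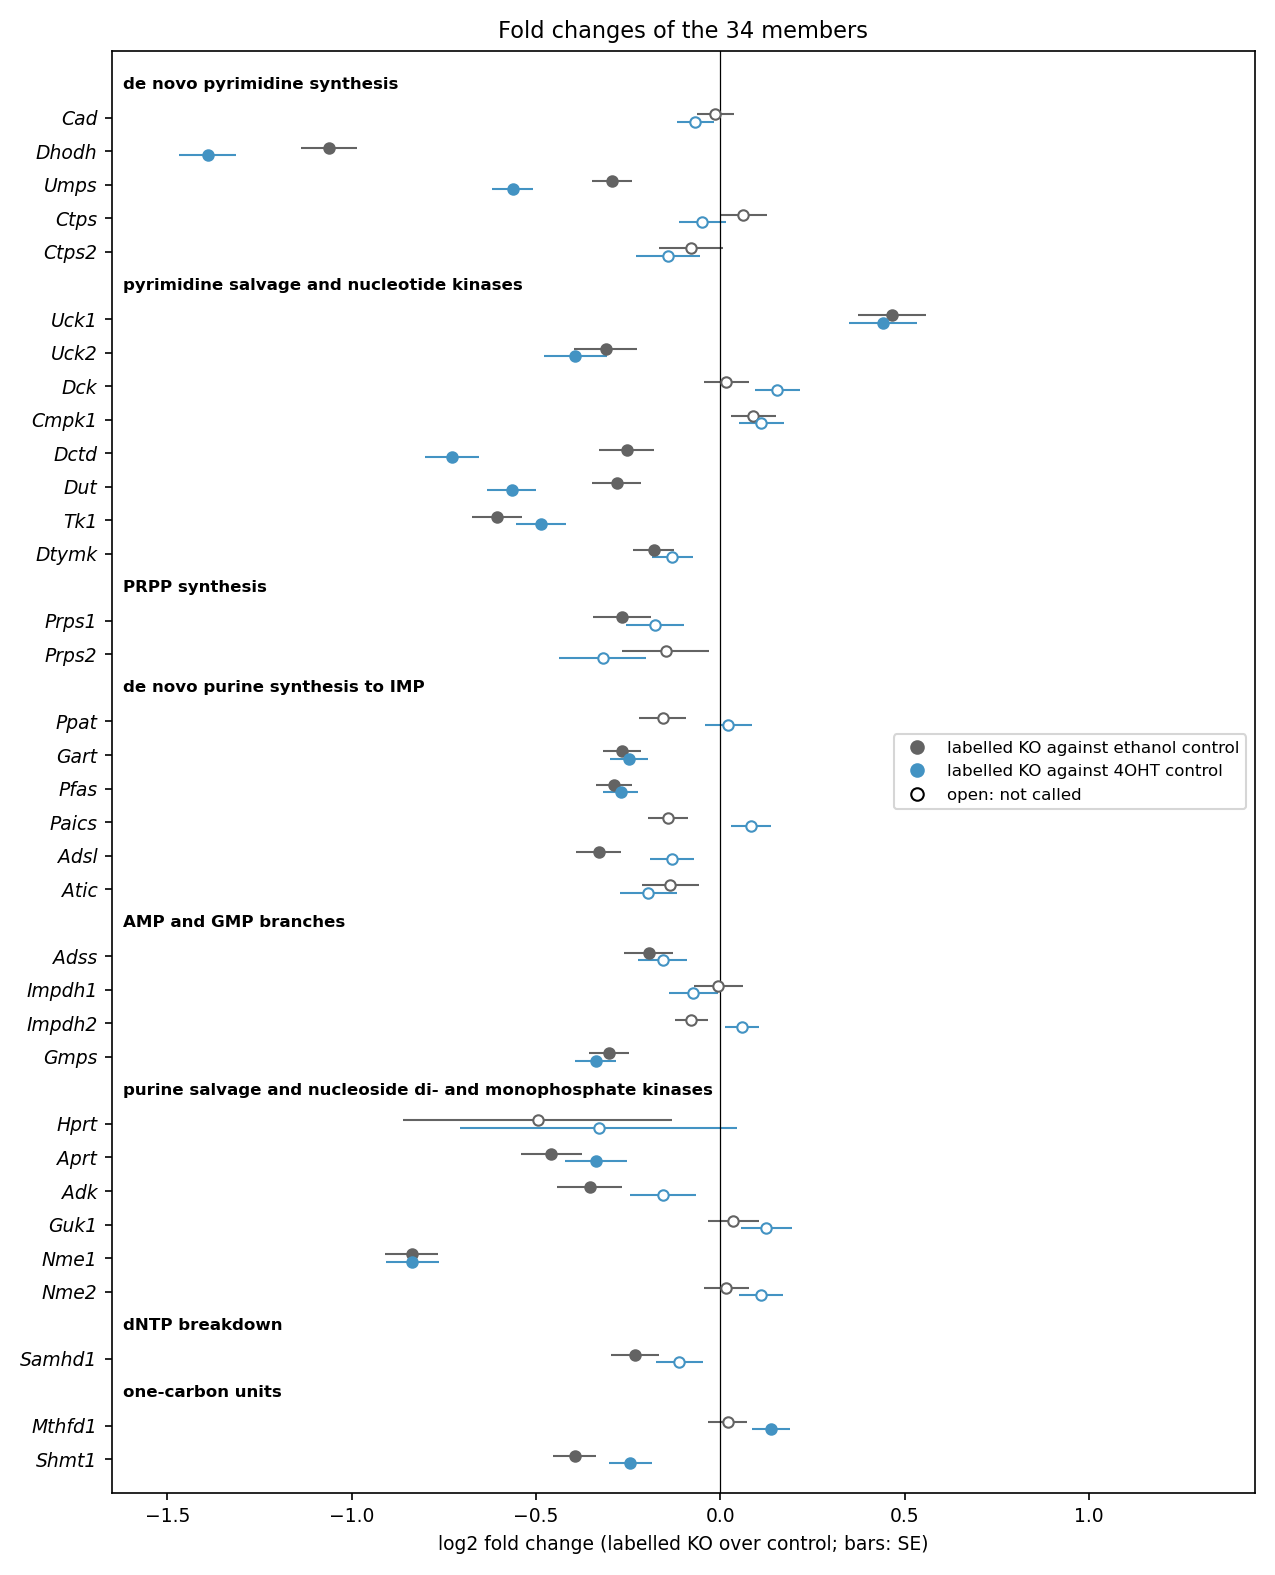
Log2 fold change of each of the 34 genes in labelled KO libraries over the ethanol control (grey) and the 4OHT control (blue), grouped by role, with the standard error as a bar; filled points are called at an adjusted p under 0.05, and each group has 3 libraries. Dhodh lies farthest to the left in both comparisons, at -1.06 and -1.39, followed against the ethanol control by Nme1 at -0.84, and Uck1 is the only filled point to the right of 0 in both.

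Of the 5 genes of de novo pyrimidine synthesis, Dhodh and Umps fell against both controls, and Cad, Ctps and Ctps2 were not called against either. Dhodh, dihydroorotate dehydrogenase, had 17.0, 18.5 and 18.7 CPM in labelled KO libraries, 43.5, 49.6 and 49.1 CPM in 4OHT control libraries and 35.1, 38.9 and 39.2 CPM in ethanol control libraries. The labelled KO libraries lay below every control library, and the 4OHT control libraries lay above the ethanol control libraries. Dhodh fell by 52.1% against the ethanol control (log2 fold change -1.06, SE 0.077, adjusted p = 4.7e-08) and fell by 61.9% against the 4OHT control (-1.39, SE 0.077, adjusted p = 9.8e-10). These values rest on 360 to 401 counts in a labelled KO library, 844 to 1022 in a 4OHT control library and 656 to 890 in an ethanol control library. In no other member did the labelled KO libraries fall as far against either control.

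Umps, which makes UMP from the orotate that Dhodh yields, had 108, 110 and 101 CPM in labelled KO libraries, 152, 162 and 158 CPM in 4OHT control libraries and 126, 138 and 127 CPM in ethanol control libraries. The 3 groups did not overlap, with the labelled KO libraries lowest and the 4OHT control libraries highest. Umps fell by 0.29 on the log2 scale against the ethanol control (SE 0.055, adjusted p = 0.0011) and by 0.56 against the 4OHT control (SE 0.055, adjusted p = 9.8e-07). Cad, the enzyme of the opening steps, averaged 466 ± 19.9 CPM in labelled KO libraries, 488 ± 24.4 CPM in the 4OHT control and 470 ± 13.2 CPM in the ethanol control (SD, n = 3 each), a log2 difference of -0.01 against the ethanol control (SE 0.051, adjusted p = 0.87). The CTP synthases Ctps and Ctps2 differed from the ethanol control by 0.06 (SE 0.064, adjusted p = 0.50) and -0.08 (SE 0.086, adjusted p = 0.53).

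Per kilobase of annotated exon, the labelled KO libraries held 8.87 CPM of Dhodh, 30.5 CPM of Umps and 64.2 CPM of Cad. The 4OHT control held 23.2, 45.1 and 67.3 CPM per kilobase of the same genes, and the ethanol control 18.5, 37.4 and 64.8 CPM per kilobase. Dhodh had the lowest level of these 3 genes in every group. On this length-scaled level the members spanned from Hprt, at 0.481 CPM per kilobase in labelled KO libraries, 0.592 in the 4OHT control and 0.664 in the ethanol control, to Impdh2, at 197, 189 and 207 CPM per kilobase in the same groups. Paics and Gart came next below Impdh2.

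**Figure D2:**
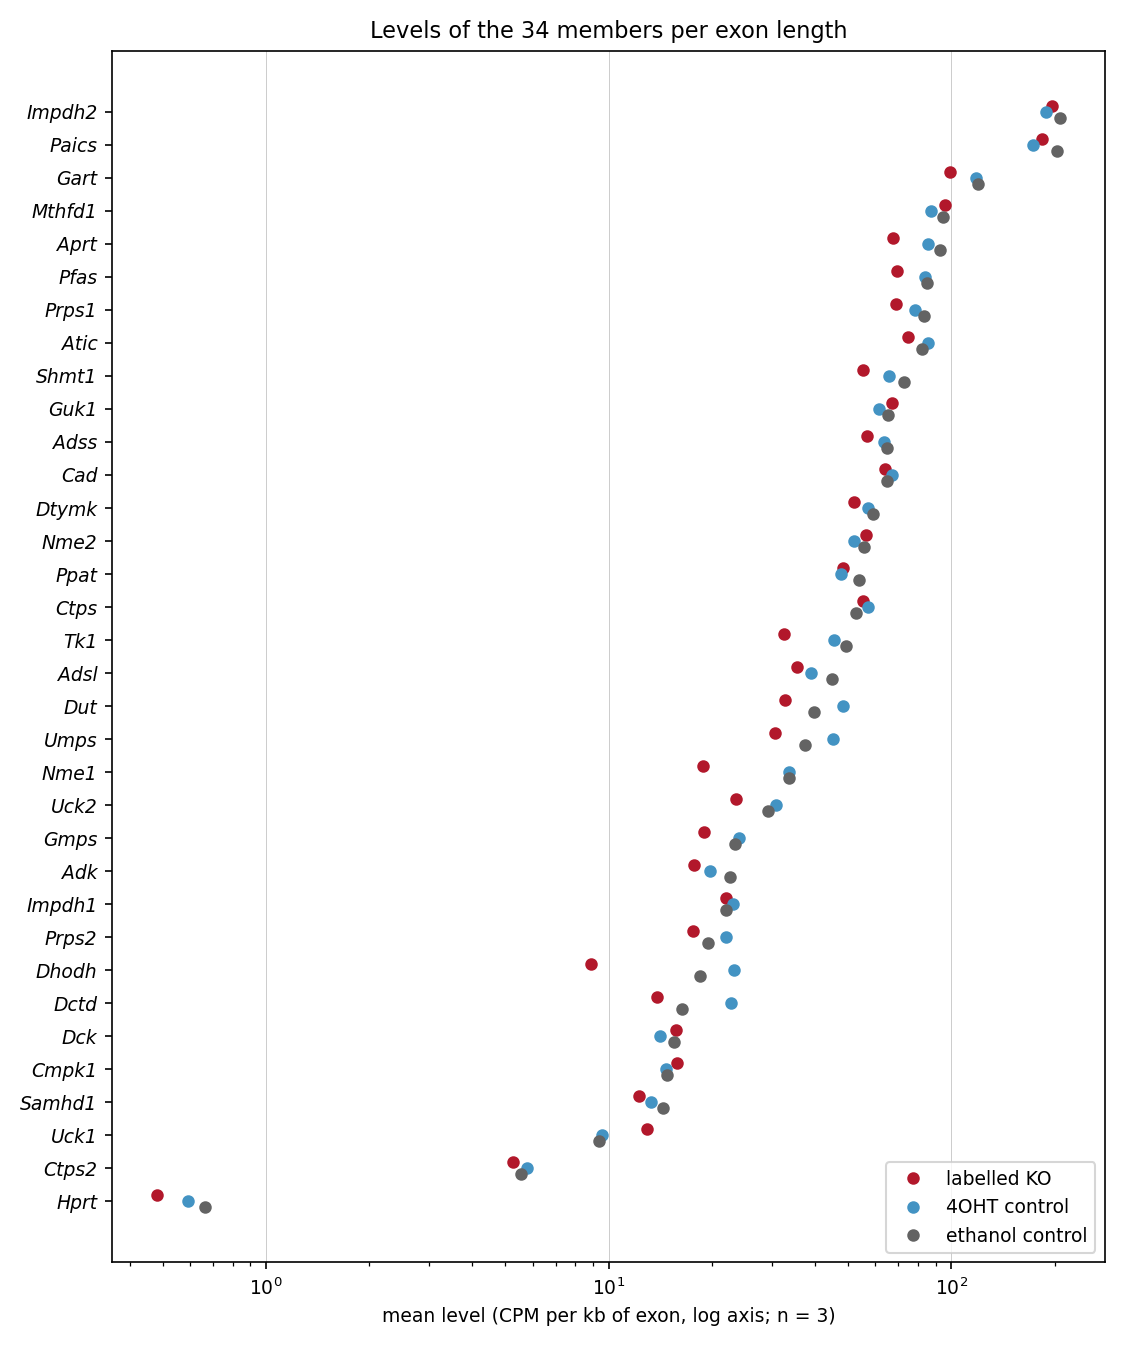
Mean level of each gene in CPM per kilobase of annotated exon (log axis) in labelled KO (red), 4OHT control (blue) and ethanol control (grey) libraries, 3 per group, ordered by level. Impdh2 and Paics stand highest, Hprt lowest, and the red point of Dhodh lies at 8.87, left of its control points at 23.2 and 18.5.

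Of the 8 genes of pyrimidine salvage and deoxypyrimidine phosphorylation, 5 fell against the ethanol control and 4 of them also against the 4OHT control, while 1 rose against both. Among genes with a mean of at least 10 CPM, 21.8% fell and 12.5% rose against the ethanol control. Against the 4OHT control these shares were 27.3% and 18.5%. The rise lies near these shares and is given for the single gene only. Tk1, the cytosolic thymidine kinase, had 44.0, 51.3 and 44.6 CPM in labelled KO libraries, 63.5, 70.1 and 62.3 CPM in 4OHT control libraries and 69.5, 71.3 and 72.1 CPM in ethanol control libraries. All labelled KO libraries lay below all control libraries, and Tk1 fell by 34.3% against the ethanol control (log2 fold change -0.61, SE 0.068, adjusted p = 8.6e-06) and fell by 28.6% against the 4OHT control (adjusted p = 4.2e-05). Dctd, the deaminase that turns dCMP into dUMP, had 29.3, 33.9 and 29.9 CPM in labelled KO libraries, 48.4, 56.0 and 49.8 CPM in 4OHT control libraries and 36.4, 37.6 and 36.9 CPM in ethanol control libraries. The groups did not overlap, and the gap to the 4OHT control (log2 fold change -0.73, SE 0.073, adjusted p = 1.4e-06) was wider than that to the ethanol control (-0.25, SE 0.074, adjusted p = 0.019). The call of Dctd against the ethanol control was lost without ethanol control replicate 2 (adjusted p = 0.064), without KO replicate 1 (0.078), without KO replicate 3 (0.052) and on library totals (0.074).

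Dut, the dUTPase that keeps uracil out of DNA and supplies dUMP, had 64.4, 77.1 and 70.6 CPM in labelled KO libraries, 98.9, 108 and 107 CPM in 4OHT control libraries and 82.4, 85.4 and 90.0 CPM in ethanol control libraries. Like Umps and Dctd, it was lowest in labelled KO libraries and highest in the 4OHT control with no overlap between groups. Dut fell by 0.28 on the log2 scale against the ethanol control (SE 0.067, adjusted p = 0.0054) and by 0.57 against the 4OHT control (SE 0.066, adjusted p = 6.6e-06). Dtymk, the thymidylate kinase, fell by 0.18 against the ethanol control (SE 0.056, adjusted p = 0.025) and differed by -0.13 from the 4OHT control (adjusted p = 0.077, and 0.0069 with the replicate block). The call of Dtymk against the ethanol control was lost on library totals (adjusted p = 0.16) and without ethanol control replicate 1 (0.071), ethanol control replicate 2 (0.075), KO replicate 1 (0.058) or KO replicate 3 (0.089).

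The uridine-cytidine kinases Uck1 and Uck2, which phosphorylate the same nucleosides, went in opposite directions. Uck1 had 26.5, 27.6 and 23.7 CPM in labelled KO libraries, 16.6, 19.7 and 21.0 CPM in 4OHT control libraries and 18.5, 18.2 and 19.7 CPM in ethanol control libraries. It was the only member that rose against both controls, with log2 fold changes of 0.47 against the ethanol control (SE 0.093, adjusted p = 0.0016) and 0.44 against the 4OHT control (SE 0.093, adjusted p = 0.0014) and no overlap. Uck2 had 104, 108 and 121 CPM in labelled KO libraries, 131, 146 and 160 CPM in 4OHT control libraries and 126, 135 and 153 CPM in ethanol control libraries, again with no overlap. Uck2 fell by 0.31 against the ethanol control (SE 0.086, adjusted p = 0.016) and by 0.39 against the 4OHT control (SE 0.086, adjusted p = 0.0026). Its call against the ethanol control was lost without ethanol control replicate 3 (adjusted p = 0.065), KO replicate 1 (0.062) or KO replicate 2 (0.054). Of the stretches of 50 bases in Uck1 transcripts, 24.5% also occurred in other genes, most in a processed pseudogene, so its level is uncertain to the extent that reads were split. Dck, the deoxycytidine kinase, and Cmpk1, the UMP and CMP kinase, were not called against the ethanol control (0.02, SE 0.061, adjusted p = 0.86, and 0.09, SE 0.061, adjusted p = 0.29).

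PRPP is made by Prps1 and Prps2. Prps1 fell by 0.27 on the log2 scale against the ethanol control (SE 0.078, adjusted p = 0.020), with means of 136 ± 9.51 CPM in labelled KO libraries and 163 ± 17.0 CPM in the ethanol control (SD, n = 3 each), and shares 10.1% of its 50-base stretches with Prps1l3. Without ethanol control replicate 2 or 3 its adjusted p was 0.053 or 0.095, without KO replicate 1 or 2 it was 0.078 or 0.051, and on library totals it was 0.056. Against the 4OHT control Prps1 differed by -0.18 (adjusted p = 0.087, and 0.00025 with the replicate block). Prps2 was not called against the ethanol control (-0.15, SE 0.118, adjusted p = 0.39), but with the replicate block its adjusted p was 0.0058. The libraries of Prps2 overlapped between the groups.

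All 6 genes from PRPP to IMP had negative log2 fold changes against the ethanol control, between -0.14 and -0.33, and 3 of them fell. Among genes with a mean of at least 10 CPM, 21.8% fell in that comparison. Against the 4OHT control 2 of the 6 fell, with 4 values negative and 2 positive. There 27.3% of genes at 10 CPM or more fell, and 7694 of all 16224 tested genes had negative values. The counts against the 4OHT control lie near these shares and are given for the single genes only. The positive values were those of Ppat (0.02, SE 0.063, adjusted p = 0.81) and Paics (0.08, SE 0.054, adjusted p = 0.24), neither called. Gart, the enzyme of 3 separate steps of the pathway, averaged 396 ± 20.2 CPM in labelled KO libraries, 470 ± 11.5 CPM in the 4OHT control and 477 ± 17.2 CPM in the ethanol control (SD, n = 3 each). Pfas, which adds the nitrogen of glutamine to the growing ring, averaged 443 ± 14.0 CPM in labelled KO libraries, 534 ± 14.1 CPM in the 4OHT control and 540 ± 22.9 CPM in the ethanol control. For both genes the labelled KO libraries lay below every control library, by 16.9% for Gart (adjusted p = 0.0011) and 18.1% for Pfas (adjusted p = 0.00044) against the ethanol control. Against the 4OHT control, Gart fell by 15.7% (adjusted p = 0.0012) and Pfas by 17.1% (adjusted p = 0.0004).

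Adsl, the lyase that acts both before IMP and on the way to AMP, had 131, 143 and 122 CPM in labelled KO libraries, 148, 146 and 138 CPM in 4OHT control libraries and 162, 171 and 165 CPM in ethanol control libraries. Every labelled KO library lay below the ethanol control, while 1 of them lay within the range of the 4OHT control. Adsl fell by 0.33 against the ethanol control (SE 0.060, adjusted p = 0.00079) and differed by -0.13 from the 4OHT control (adjusted p = 0.097, and 0.0071 with the replicate block). Ppat, which commits PRPP to purines, Paics and Atic, which closes the ring, were not called against the ethanol control, with values of -0.16 (SE 0.063, adjusted p = 0.078), -0.14 (SE 0.054, adjusted p = 0.062) and -0.14 (SE 0.077, adjusted p = 0.21). With the replicate block their adjusted p was 0.001, 0.0015 and 0.0054, and without KO replicate 2 it was 0.0083, 0.028 and 0.013. Ppat and Paics lie head to head with 272 shared bases of annotation, and 12.1% of the 50-base stretches of Paics and 5.7% of those of Ppat occur in other genes.

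In the branches after IMP, Gmps and Adss fell against the ethanol control and both IMP dehydrogenases, which open the guanine branch, were not called. Gmps, the GMP synthetase, had 146, 162 and 154 CPM in labelled KO libraries, 192, 202 and 189 CPM in 4OHT control libraries and 180, 199 and 190 CPM in ethanol control libraries. No labelled KO library reached a control library, and Gmps fell by 0.30 against the ethanol control (SE 0.055, adjusted p = 0.00089) and by 0.34 against the 4OHT control (SE 0.055, adjusted p = 0.00018). Adss, the adenylosuccinate synthetase, fell by 0.19 against the ethanol control (SE 0.066, adjusted p = 0.038) and differed by -0.16 from the 4OHT control (adjusted p = 0.073, and 0.0007 with the replicate block). Its call against the ethanol control was lost without ethanol control replicate 2 (adjusted p = 0.17), KO replicate 1 (0.097) or KO replicate 3 (0.13) and on library totals (0.17). Impdh1 and Impdh2 differed from the ethanol control by -0.01 (SE 0.066, adjusted p = 0.97) and -0.08 (SE 0.045, adjusted p = 0.21). Impdh2 shares 73.9% of its 50-base stretches with the pseudogene Impdh2-ps, so its values are uncertain.

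Among the purine salvage enzymes, Aprt and Adk fell against the ethanol control, and Hprt was close to undetected everywhere. Aprt, which recovers adenine, had 68.7, 86.5 and 66.5 CPM in labelled KO libraries, 90.0, 101 and 89.6 CPM in 4OHT control libraries and 102, 101 and 101 CPM in ethanol control libraries. The labelled KO libraries were lowest without overlap, and Aprt fell by 0.46 against the ethanol control (SE 0.083, adjusted p = 0.0011) and by 0.34 against the 4OHT control (SE 0.084, adjusted p = 0.0057). Adk, the adenosine kinase, had 30.3, 36.8 and 36.7 CPM in labelled KO libraries, 41.8, 37.7 and 35.7 CPM in 4OHT control libraries and 39.6, 45.7 and 47.2 CPM in ethanol control libraries. It fell by 0.35 against the ethanol control (SE 0.089, adjusted p = 0.0083), without overlap, and overlapped with the 4OHT control (-0.16, SE 0.090, adjusted p = 0.19). Hprt, which recovers hypoxanthine and guanine, had 0.509, 0.778 and 0.572 CPM in labelled KO libraries, 1.19, 0.529 and 0.576 CPM in 4OHT control libraries and 1.14, 0.831 and 0.598 CPM in ethanol control libraries, or 9 to 25 counts in a library. As background, widely used derivatives of E14 carry a deletion in Hprt, and the labels do not say which derivative was grown. Guk1, the guanylate kinase, was not called against the ethanol control (0.04, SE 0.068, adjusted p = 0.73).

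The nucleoside diphosphate kinases Nme1 and Nme2, neighbours on the same strand whose enzymes make triphosphates from diphosphates, differed from each other. Nme1 had 56.4, 68.3 and 58.4 CPM in labelled KO libraries, 102, 118 and 107 CPM in 4OHT control libraries and 106, 113 and 108 CPM in ethanol control libraries. The labelled KO libraries lay far below both controls, which overlapped with each other. Nme1 fell by 44.0% against the ethanol control (log2 fold change -0.84, SE 0.072, adjusted p = 4.2e-07) and by 43.9% against the 4OHT control (-0.83, SE 0.072, adjusted p = 2.5e-07). Nme2 had 64.9, 70.9 and 61.8 CPM in labelled KO libraries, 58.5, 63.3 and 61.4 CPM in 4OHT control libraries and 64.2, 64.8 and 66.3 CPM in ethanol control libraries. Its groups overlapped, and it was not called against the ethanol control (0.02, SE 0.060, adjusted p = 0.86). The annotated readthrough gene Gm20390, at 7 counts or fewer in every library, covers both genes and holds 11.8% of the 50-base stretches of Nme1 and 54.5% of those of Nme2. How reads in these shared stretches were counted was not examined, so the level of Nme2, and its difference from Nme1, is uncertain.

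Stretches from the windows before starts of Nme1 and Nme2 are shown because the neighbours differed, Gart because it is a purine gene that fell, and Uck1 because it rose against both controls. The sequences are those of RefSeq on GRCm38.p6, all from the minus strand and written 5′ to 3′. Those of Nme1, Nme2 and Gart are the longest run of the window outside annotated exons, and that of Uck1 is the 30 bases before a RefSeq start, which lie within the annotated gene. RefSeq gives 2 starts each for Nme1, Nme2 and Uck1. The Nme1 stretch lies inside the annotated gene, before a RefSeq start that matches 0 GENCODE transcript starts. The other start, after the window chr11:93968273-93968522, matches 2. That window also holds CACGTG, 18 bases before its start. For genes with 2 starts, the stretch with the most motif letters was printed, and length decided ties. The motifs shown in Nme1 and Uck1 thus partly reflect this choice. Capitals mark CACGTG (E-box) in Nme1, CCAAT in Gart and the NRF1 motif in Uck1, and the Nme2 stretch holds none of the motifs searched.
Nme1, chr11:93968026-93968220: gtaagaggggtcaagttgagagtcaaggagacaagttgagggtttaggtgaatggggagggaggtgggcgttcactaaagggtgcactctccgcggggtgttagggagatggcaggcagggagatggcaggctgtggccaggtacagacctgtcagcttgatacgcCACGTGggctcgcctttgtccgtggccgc
Nme2, chr11:93956260-93956506: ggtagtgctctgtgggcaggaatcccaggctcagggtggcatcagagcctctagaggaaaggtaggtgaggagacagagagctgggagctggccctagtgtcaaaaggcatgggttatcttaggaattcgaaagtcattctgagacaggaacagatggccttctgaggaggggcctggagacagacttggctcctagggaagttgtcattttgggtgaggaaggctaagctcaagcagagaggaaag
Gart, chr16:91646973-91647222: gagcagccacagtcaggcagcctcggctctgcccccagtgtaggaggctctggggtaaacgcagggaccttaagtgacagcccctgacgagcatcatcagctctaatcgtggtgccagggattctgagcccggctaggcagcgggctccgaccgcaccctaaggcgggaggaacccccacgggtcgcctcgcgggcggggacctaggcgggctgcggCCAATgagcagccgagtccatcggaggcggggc
Uck1, chr2:32260106-32260135: gagtgccgcgcctcatgcGCGCATGCGCtc

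RefSeq held promoter windows for 32 of the 34 genes, all but Dhodh and Pfas. The 250 bases before each start were searched on both strands, and the motifs did not overlap in the stretches printed. The E-box CACGTG, bound by Myc and related factors, was found in 5 members (15.6%, namely Atic, Dtymk, Impdh2, Nme1 and Paics), beside 6.86% of all 27025 genes with a window and 9.78% of the 11447 tested genes with a window. CCAAT was found in 11 members (34.4%), beside 37.5% of all genes and 40.3% of tested genes. The NRF1 motif was found in Ctps and Uck1 (6.25%), beside 0.877% of all genes and 1.78% of tested genes. The E2F motif, searched as TTTGGCGC or TTTCCCGC, was found in Ppat alone (3.12%), beside 1.51% of all genes and 2.74% of tested genes, and the ETS motif CCGGAAGT in 0 members, beside 3.23% and 6.18%. Of the 16 members with a window that fell against the ethanol control, 2 held the E-box and 6 held CCAAT, and of the 16 other members 3 held the E-box and 5 held CCAAT.

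Samhd1, which breaks dNTPs down, fell by 0.23 against the ethanol control (SE 0.064, adjusted p = 0.014) and differed by -0.11 from the 4OHT control (adjusted p = 0.19, and 0.042 with the replicate block). Its call against the ethanol control was lost without ethanol control replicate 2 (adjusted p = 0.069), ethanol control replicate 3 (0.062) or KO replicate 1 (0.069) and on library totals (0.056). Shmt1, which charges folate with the carbon of serine, had 146, 170 and 159 CPM in labelled KO libraries, 182, 193 and 188 CPM in 4OHT control libraries and 201, 216 and 208 CPM in ethanol control libraries. The 3 groups did not overlap, and Shmt1 fell by 0.40 against the ethanol control (SE 0.058, adjusted p = 0.00013) and by 0.24 against the 4OHT control (SE 0.058, adjusted p = 0.0036). Mthfd1, which makes the formyl folate used by Gart and Atic, averaged 310 ± 12 CPM in labelled KO libraries, 282 ± 14.1 CPM in the 4OHT control and 306 ± 7.75 CPM in the ethanol control (SD, n = 3 each). It was not called against the ethanol control (0.02, SE 0.052, adjusted p = 0.81) and rose by 0.14 against the 4OHT control (SE 0.052, adjusted p = 0.045). That call was lost under 4 of the other settings and without any of 7 libraries, among them 4OHT control replicate 3 (0.10, adjusted p = 0.20) and KO replicate 2 (0.10, adjusted p = 0.16).

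**Figure D3:**
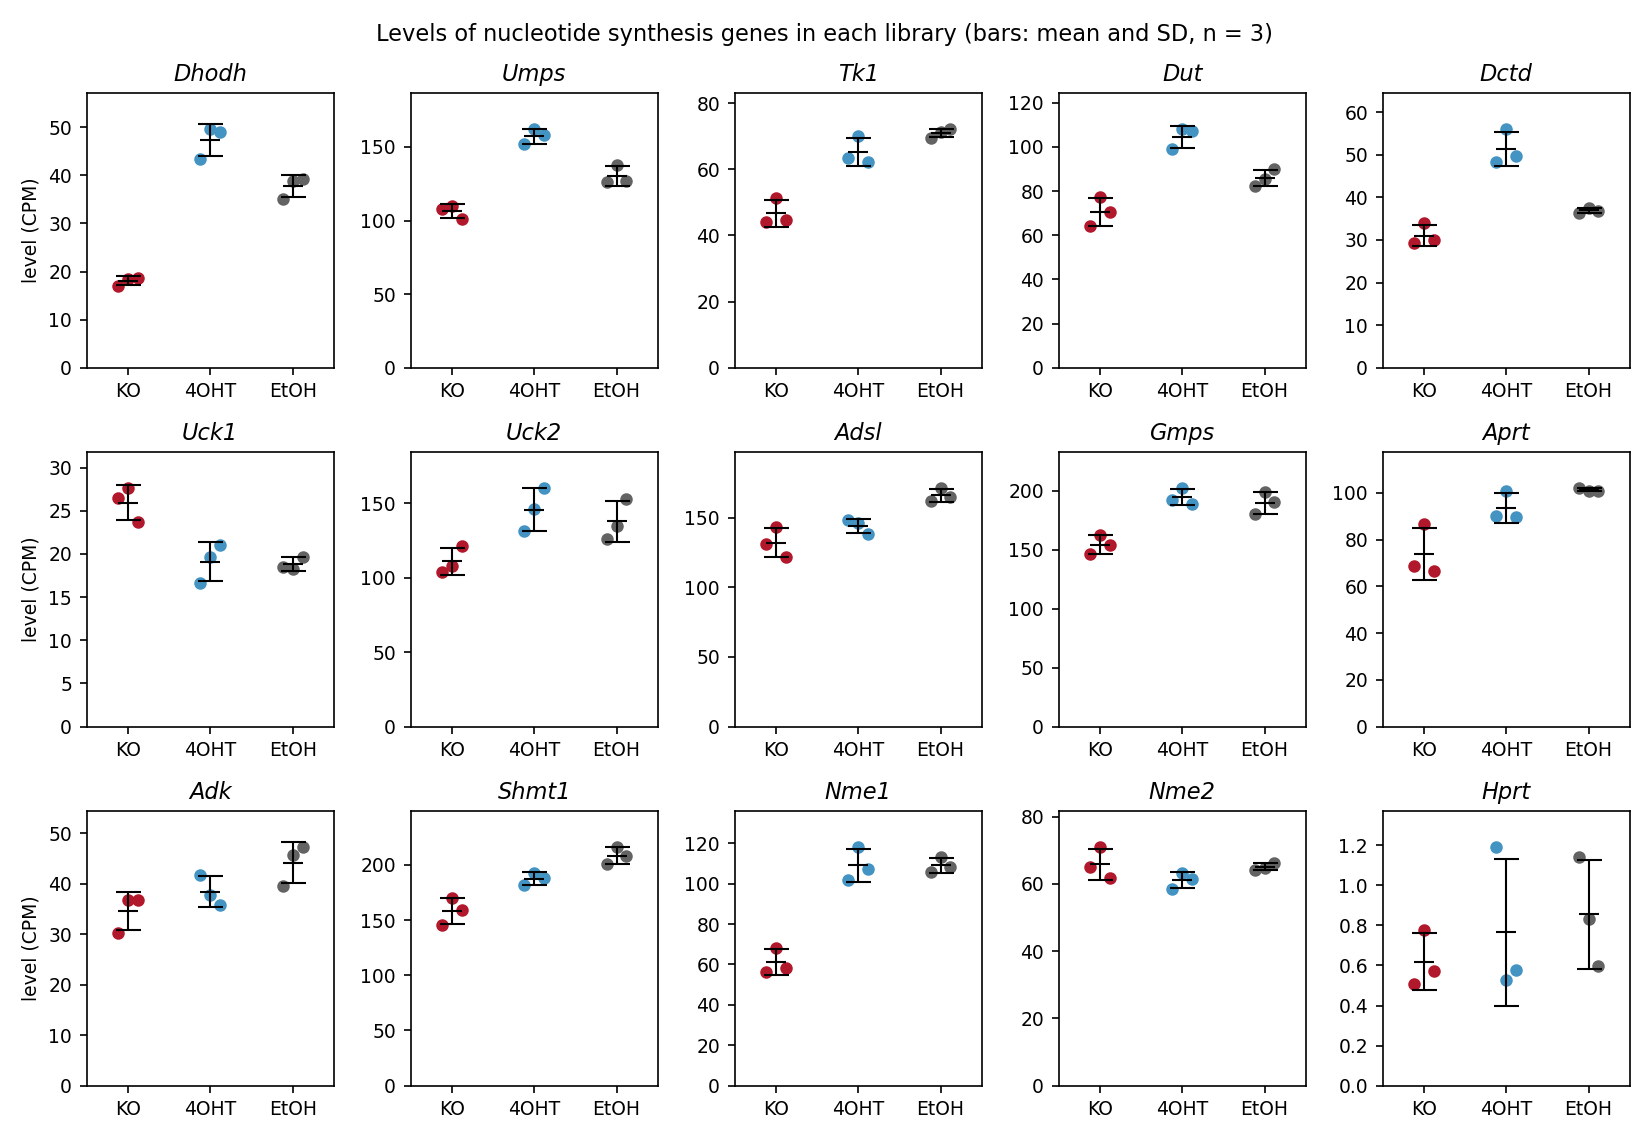
Level in CPM of 15 of the genes in each library of the labelled KO (red), 4OHT control (blue) and ethanol control (grey) groups, with mean and SD (n = 3); every axis starts at 0. Dhodh and Nme1 show the widest gaps between labelled KO and control libraries, Umps, Dut and Dctd stand highest in the 4OHT control, Nme2 overlaps across groups and Hprt stays near or under 1 CPM.

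All 3 labelled KO libraries lay below all 3 ethanol control libraries in 20 members and above them in 2, where this held for 20.5% and 21.3% of all tested genes. The counts against the 4OHT control were 14 below and 4 above, where the shares over all tested genes were 23.7% and 24.5%. Below all 6 control libraries were 14 members, against 13.1% of all tested genes. These shares were not computed for genes with a mean of at least 10 CPM, where called falls were more frequent.

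Between the controls, which differ in line and in drug, 4 members rose in the 4OHT control and 3 fell, where 18.4% of all tested genes were called, 9.66% as rises and 8.75% as falls, with a median log2 fold change of -0.03. Among genes with a mean of at least 10 CPM, 11.8% rose and 11.6% fell. Both member counts lie near these shares and are given for the single genes only. The 4 that rose were Dhodh (0.33, SE 0.073, adjusted p = 0.0047), Umps (0.27, SE 0.055, adjusted p = 0.0027), Dctd (0.47, SE 0.073, adjusted p = 0.00028) and Dut (0.28, SE 0.066, adjusted p = 0.0065), which fell in the labelled KO libraries. The 3 that fell were Paics (-0.23, SE 0.054, adjusted p = 0.0079), Adsl (-0.20, SE 0.060, adjusted p = 0.029) and Impdh2 (-0.14, SE 0.045, adjusted p = 0.044). The count of falls was 1 without ethanol control replicate 2 or 3 or 4OHT control replicate 2 or 3, 5 without KO replicate 2 and 8 with the replicate block. The call of Adsl was lost without ethanol control replicate 2 or 3 or 4OHT control replicate 2 or 3 (adjusted p from 0.056 to 0.11), and that of Impdh2 without any 1 of the 6 control libraries (0.053 to 0.16). Without a filter on low counts the call of Impdh2 was also lost (0.12).

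For the gene lists outside the members, the shares over all tested genes were 14.2% falls and 13.0% rises against the ethanol control. Against the 4OHT control they were 19.8% and 19.1%. Genes of deoxynucleotide supply that are not among the 34 were mixed against the ethanol control, with 3 that rose and 3 that fell of 11 tested. Tk2, the mitochondrial thymidine kinase, rose by 0.49 (SE 0.088, adjusted p = 0.00082), but was not called against the 4OHT control (0.16, adjusted p = 0.16), which itself was above the ethanol control (0.33, adjusted p = 0.018). The ribonucleotide reductase subunits Rrm1 and Rrm2 fell by 0.23 (SE 0.053, adjusted p = 0.005) and by 0.21 (SE 0.061, adjusted p = 0.018), while the alternative subunit Rrm2b was at 0.20 (SE 0.113, adjusted p = 0.21) and rose by 0.41 against the 4OHT control (SE 0.115, adjusted p = 0.011). Tyms, the thymidylate synthase, was not called (-0.07, SE 0.064, adjusted p = 0.45). When ethanol control replicate 2 or KO replicate 1 was left out, or on library totals, 1 gene fell. Relative to the 4OHT control 3 rose and 2 fell. There 1 fell without ethanol control replicate 2, KO replicate 1 or 3 or 4OHT control replicate 2 or 3. On library totals 6 rose and 1 fell.

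In folate and serine supply outside the members, 7 of 17 genes fell against the ethanol control and 0 rose by edgeR's quasi-likelihood test, among them the mitochondrial enzymes Mthfd1l (-0.58, SE 0.093, adjusted p = 0.00063) and Mthfd2 (-0.45, SE 0.071, adjusted p = 0.00023) and the folate polyglutamating Fpgs (-0.40, SE 0.063, adjusted p = 0.00025). Their median was -0.18, and the count of falls was 4 without ethanol control replicate 3. Relative to the 4OHT control 4 fell and 1 rose, and the rises numbered 2 without 4OHT control replicate 3 and 3 with the replicate block. Of 15 other nucleotide kinases and PRPP-related genes, Ak1, an adenylate kinase, rose by 0.94 (SE 0.100, adjusted p = 1.2e-05), and 3 fell, with Prpsap1, a PRPP synthetase-associated protein, at -0.29 (adjusted p = 0.0016). Prpsap1 was not called against the 4OHT control (-0.02, adjusted p = 0.77), which itself was below the ethanol control (-0.27, adjusted p = 0.004). The 3 falls of 15 against the ethanol control lie near the share over all tested genes and are given for the single genes only. With the replicate block 6 of these 15 fell. Of the same 15, 2 rose and 3 fell against the 4OHT control. Those falls numbered 1 without KO replicate 1 or 4OHT control replicate 3, 5 with the replicate block and 0 on library totals.

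Of 19 genes of nucleotide breakdown and interconversion, 3 rose and 1 fell against the ethanol control, and 4 rose and 0 fell against the 4OHT control. The rises lie near the shares over all tested genes, 13.0% and 19.1%, and so are given for the single genes only. The 3 against the ethanol control were Nt5c2, a nucleotidase of purine monophosphates (0.39, SE 0.053, adjusted p = 6.6e-05), Ada, the adenosine deaminase (0.44, SE 0.094, adjusted p = 0.0027), and Tymp, the thymidine phosphorylase (0.62, SE 0.169, adjusted p = 0.013). Nt5c2 and Ada rose further against the 4OHT control, by 0.71 (adjusted p = 5.6e-08) and 0.78 (adjusted p = 1.2e-05). The number of falls against the ethanol control was 0 without ethanol control replicate 1 or 2 or KO replicate 1, 2 without KO replicate 2 and 4 with the replicate block. For the 4OHT control it was 1 without ethanol control replicate 3, KO replicate 3 or 4OHT control replicate 1, and 2 with the block. Of 6 nucleoside transporters, Slc28a1 (-0.42, adjusted p = 0.00031), Slc29a3 (-0.32, adjusted p = 0.010) and Slc29a2 (-0.30, adjusted p = 0.029) fell against the ethanol control. Of the 6, 2 fell against the 4OHT control, or 4 with the block, and Slc29a2 was not called there (-0.23, adjusted p = 0.070).

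Of 10 regulators, Mtor, the growth kinase (-0.39, SE 0.057, adjusted p = 0.00012), and E2f3, an S phase transcription factor (-0.21, SE 0.064, adjusted p = 0.026), fell against the ethanol control. That count, near the share over all tested genes, was 1 without ethanol control replicate 2 or 3 or KO replicate 1, and 5 with the replicate block. Relative to the 4OHT control 5 of the 10 fell and 2 rose. These falls numbered 3 without KO replicate 1 or 3, 2 without 4OHT control replicate 2 and 1 on library totals. The rises numbered 1 without KO replicate 1 or 3 or 4OHT control replicate 1 or 2. Myc, an activator of nucleotide genes, had 43.8, 67.4 and 36.3 CPM in labelled KO libraries, 53.4, 63.3 and 41.7 CPM in 4OHT control libraries and 60.8, 64.7 and 47.2 CPM in ethanol control libraries. Its groups overlapped and it was not called (-0.23, SE 0.268, adjusted p = 0.57). Atf4, which drives serine and folate genes, was not called against the ethanol control (-0.10, SE 0.063, adjusted p = 0.25) and rose by 0.23 against the 4OHT control (SE 0.063, adjusted p = 0.0089).

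Around the Dhodh step, the ubiquinone side was described through other enzymes that hand electrons to ubiquinone, genes of ubiquinone synthesis and complex III. Of 7 tested genes of other enzymes that reduce ubiquinone, 4 fell and 1 rose against the ethanol control. Sdha, Sdhb, Sdhc and Sdhd among the 7 are subunits of 1 enzyme, complex II. The falls included Gpd2, the mitochondrial glycerophosphate dehydrogenase (-0.48, SE 0.059, adjusted p = 2.6e-05), and Sdhb (-0.25, SE 0.067, adjusted p = 0.012). Etfdh, which passes electrons from fatty acid oxidation, rose by 0.45 (SE 0.077, adjusted p = 0.00052). Gpd2 also fell against the 4OHT control (-0.58, adjusted p = 1.6e-06), whereas Sdhb (-0.07, adjusted p = 0.42) and Etfdh (0.16, adjusted p = 0.099) were not called there. Etfdh was higher in the 4OHT control than in the ethanol control (0.28, adjusted p = 0.018). Falls against the ethanol control numbered 1 without ethanol control replicate 3 and 2 on library totals, and 3 of the 7 fell against the 4OHT control. Of 13 genes of ubiquinone synthesis, 5 fell against the ethanol control, or 3 without ethanol control replicate 2 or KO replicate 1. Relative to the 4OHT control 4 fell and 2 rose, and 1 rose without any 1 of 7 libraries (all but KO replicate 2 and 4OHT control replicate 1).

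Coq3, a methyltransferase of ubiquinone synthesis, had 3.86, 3.16 and 3.22 CPM in labelled KO libraries, 16.0, 13.3 and 15.0 CPM in 4OHT control libraries and 13.2, 13.4 and 13.6 CPM in ethanol control libraries. The labelled KO libraries lay far below all controls, and Coq3 fell by 1.96 on the log2 scale against the ethanol control (SE 0.119, adjusted p = 5e-09) and fell by 2.11 against the 4OHT control (SE 0.119, adjusted p = 1.3e-09). Pdss2 and Pdss1, which make the side chain of ubiquinone, fell by 0.47 (adjusted p = 0.00085) and 0.42 (adjusted p = 0.008) against the ethanol control. In complex III and its assembly factors, 3 of 13 genes fell and 1 rose against the ethanol control, with a median log2 fold change of -0.05. The falls lie near the 21.8% among all genes with a mean of at least 10 CPM, and are given for the single genes only. The cytochrome subunit Cyc1 was at -0.33 (SE 0.054, adjusted p = 0.00034), Uqcr10 at -0.21 (adjusted p = 0.026) and the maturation factor Ttc19 at 0.29 (adjusted p = 0.017). In complex III the falls numbered 1 and the rises 0 without ethanol control replicate 2 or 3 or KO replicate 1, the rises 2 without KO replicate 3, and with the replicate block 5 fell and 2 rose. Relative to the 4OHT control 4 fell and 3 rose, beside 27.3% and 18.5% of genes with a mean of at least 10 CPM, and the median was -0.06. Cyc1 was at -0.23 (adjusted p = 0.0031), and Uqcr10 (-0.06, adjusted p = 0.51) and Ttc19 (0.21, adjusted p = 0.055) were not called there. There the falls numbered 1 without KO replicate 1 and 2 without KO replicate 3 or 4OHT control replicate 2 or 3. The rises numbered 1 without KO replicate 2. On library totals 1 fell and 5 rose.

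S phase genes outside nucleotide synthesis also fell. Of 35, 26 fell and 0 rose against the ethanol control by edgeR's quasi-likelihood test, with a median log2 fold change of -0.26. Relative to the 4OHT control 17 fell and 1 rose, with a median of -0.16. The DNA polymerase genes Pold1 (-0.49, SE 0.057, adjusted p = 1.2e-05), Pola2 (-0.42, SE 0.056, adjusted p = 5.8e-05) and Pola1 (-0.36, SE 0.048, adjusted p = 5.4e-05) fell against the ethanol control. Their sum over the 35 genes was 5489 to 6012 CPM in labelled KO libraries, 6207 to 6708 CPM in 4OHT control libraries and 6657 to 7145 CPM in ethanol control libraries, and did not overlap between labelled KO and control libraries. Tk1, Dut, Rrm1 and Rrm2 are S phase genes of nucleotide supply as background, and the part of the S phase level in the members' values was not tested.

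**Figure D4:**
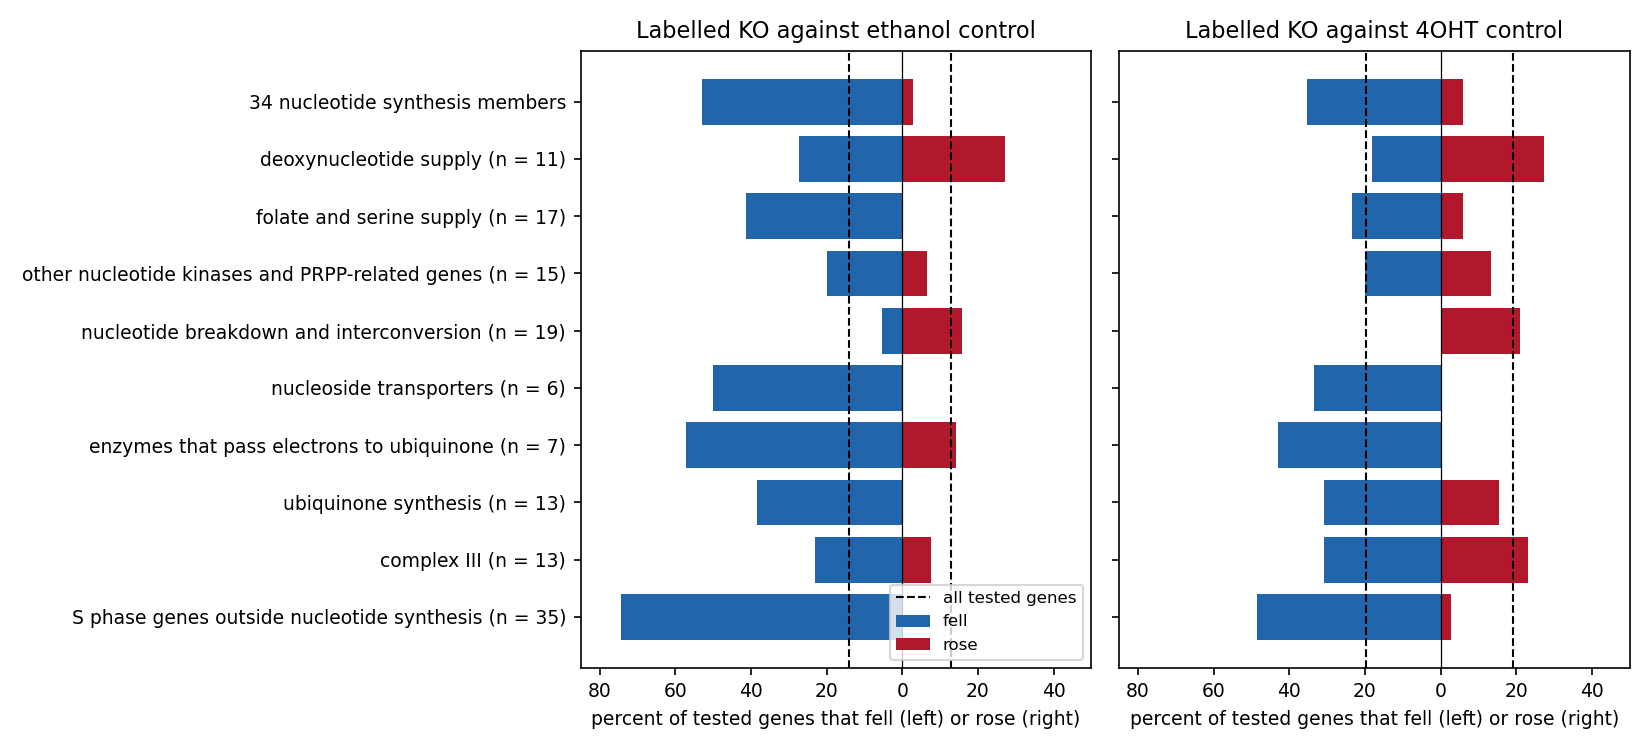
Percent of tested genes that fell (blue, left) or rose (red, right) in labelled KO libraries against the ethanol control (left panel) and the 4OHT control (right panel), for the 34 members and 9 other lists; dashed lines give the percent over all 16224 tested genes (14.2 and 13.0 on the left, 19.8 and 19.1 on the right). Among the lists drawn, which leave out the 10 regulators (2 and 5 fell) and the marker lists, the share that fell is largest for the S phase genes in both panels, at 26 of 35 and 17 of 35, and among the members it is 18 of 34 and 12 of 34. Not drawn are the falls among genes with a mean of at least 10 CPM, 21.8% on the left and 27.3% on the right.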

How the data were processed

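The authors deposited raw read counts per gene, 1 file for each of 9 RNA sequencing libraries. Per the labels' protocols, ribosomal RNA was depleted and directional libraries were made. The submitters' processing notes name cutadapt, STAR, HTSeq, edgeR, Bowtie 1.1.2, MACS2, DiffBind and the build mm9, without roles. Whether counting used strand was not given in the sources used here, and reads of antisense partners may have been counted together. Files held 37310 gene rows, of which 32620 matched a symbol, and 5 closing rows, kept out of totals and tests (no feature 26.4% to 33.8% of reads, ambiguous 0.78% to 0.91%, the others 0). No libraries were identical.

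Counts were tested with the quasi-likelihood F test of edgeR 4.0.16 (with limma 3.58.1 under R 4.3.3; TMM scaling, filterByExpr, robust, 1 fit of all libraries, 6 residual degrees of freedom) with Benjamini-Hochberg adjustment over 16224 genes. Genes with an adjusted p under 0.05 were called, and only called genes are said to have risen or fallen. Counts were simulated for the labelled KO against the ethanol control over 16224 genes. The test recovered 29.4% of 68 genes changed 1.25-fold, 60.6% of 66 changed 1.5-fold and 84.8% of 66 changed 2-fold, with 2 false calls. Alternatives were RLE factors, library totals, other filters, the replicate block, the 2 groups alone, DESeq2 1.42.0 and leaving out each library. Same-numbered libraries deviated together (correlations from 0.109 to 0.311 in all 9 pairs), so the numbers may pair the samples. The main fit left this out and its p-values are unpaired. Only the replicate block used the numbers.

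Symbols, exon lengths and transcript sequence came from GENCODE M21 (GRCm38), another build than the files'. Transcripts were compared in stretches of 50 bases. Promoters came from RefSeq (GRCm38.p6). The members, the lists and the choice of alternatives were made with earlier results of these data known. All 34 members are accounted for. Values per library are given for Dhodh, for members called with a log2 change of at least 0.3 against either control and for close pairs, with Hprt added after its values were seen. Of other lists, the called genes with the 3 smallest p-values against the ethanol control are named, and Tyms, Rrm1, Rrm2, Rrm2b, Myc, Atf4 and Zbtb11 always; some genes that this rule names are not reported here.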

Additional observations from a re-analysis of the deposited data

Results flagged for a closer look

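Reads that the counting assigned to no feature lie outside the measurements above, and their share was higher in the labelled KO libraries than in any control. The lowest share in a labelled KO library was 32.7%, and the highest share in a control library was 28.7%. Where these reads lie in the genome was not examined.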

How the results depend on the processing

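Against the ethanol control, the number of members that fell was 12 to 19 when 1 library was left out, and the number that rose was 1 each time. Against the 4OHT control, 12 to 17 fell and 1 or 2 rose when 1 library was left out, beside 12 and 2 in all 9. The number that rose against the 4OHT control was 1 with RLE factors, without a filter on low counts, with the 2 groups alone and with DESeq2, 8 on library totals and 4 with the replicate block, and the number that fell was 19 with the replicate block. In the 4OHT control against the ethanol control, 4 members rose each time and 1 to 5 fell when 1 library was left out, and the falls numbered 5 on library totals, 5 with the 2 groups alone and 8 with the replicate block, beside 3. With the replicate block, further members not named above were called against the 4OHT control and between the controls, where 6 rose. Calls were traced gene by gene for all members against the ethanol control. Against the 4OHT control this covered only members called against either control, and between the controls only members called there. Against the ethanol control signs turned for 7 genes, none of them called there. Cad was at 0.057 and Impdh1 at 0.067 on library totals, Impdh1 at 0.004 with a filter at 1 CPM, and Dck, Nme2 and Mthfd1 at -0.006, -0.005 and -0.003 with DESeq2. Leaving out 1 library gave Cad -0.042 to 0.007, Ctps -0.004 to 0.102, Dck -0.036 to 0.048, Guk1 -0.056 to 0.079, Impdh1 -0.088 to 0.048, Mthfd1 -0.02 to 0.044 and Nme2 -0.053 to 0.055. The causes were not tested. In the traced tests, 892 recomputed member values kept their direction and side of the threshold, 47 lost a call, 19 gained one and 17 changed sign. Calls gained in tests that were not traced are missing from these numbers. Counts in the other gene lists were recomputed as alternatives added after seeing the data, and 767 stayed within 1.5 times while 129 did not. Changes of the smallest size were mostly not recovered in the simulation, which changed far fewer genes than the 4417 called in the data. The adjustment is stricter when fewer genes change, so the simulated recovery need not hold for these data. The simulation covers all 16224 tested genes, and recovery at the levels of the members was not tested. Against the ethanol control, members without a call ranged in precision, with Cad at -0.013 (SE 0.051), Nme2 at 0.017 (SE 0.060), Prps2 at -0.147 (SE 0.118) and Hprt at -0.495 (SE 0.365). A missing call does not show that a member was unchanged.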
